A study of Homo sapiens with 12 samples.

Results

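The genes described here are 33 effectors of the hypoxia response whose products act outside glycolysis. They were listed by name from the widely known targets of hypoxia-inducible factor (HIF). The listing rule uses no measured value, but earlier results of these data were known when it was made. All 33 are among the 62710 genes of the deposited tables, and all 33 are among the 18355 genes with enough counts to be tested. Their expression was followed in HLF, SNU475 and PLC/PRF/5, which are established human hepatocellular carcinoma lines, with and without added lactate. The 6 groups are the untreated control and the lactate group of each line. Cells of the lactate groups were kept for 24 h with lactic acid at 20 mM, and controls received none. Each group had 2 libraries of total RNA, which makes 12. Whether replicates were grown as separate cultures is not stated in the labels, and the p-values then speak only of library-to-library spread, which can be technical. The oxygen level and the pH of the medium are not given either.

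HIF is a pair of proteins, an alpha subunit (HIF1A or EPAS1) and the constant partner ARNT. Where oxygen is plentiful, prolyl hydroxylases of the EGLN family mark the alpha subunit and the VHL protein directs its destruction. Where oxygen is short, the alpha subunit persists and the pair binds short DNA cores near its target genes. Besides the glycolytic enzymes, those targets include secreted factors that open blood vessels, mitochondrial proteins that start mitophagy, enzymes that hydroxylate and cross-link collagen, histone demethylases, and proteins that restrain growth or alter lipid and glycogen storage. The regulation of the alpha subunit is largely at the protein level, which these RNA data do not measure.

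The start of 5 of these genes is shown because lactate values below turn on them and because HIF's core binding letters lie there. Each run is the RefSeq promoter window, from 250 bases before to 50 bases after the transcript start in GRCh38.p14, written 5′ to 3′ on the gene's strand. Capitals mark ACGTG or GCGTG on that strand and, for the opposite strand, CACGT or CACGC. In PPFIA4 the capitals CACGTG are ACGTG on both strands, overlapping.
PPFIA4: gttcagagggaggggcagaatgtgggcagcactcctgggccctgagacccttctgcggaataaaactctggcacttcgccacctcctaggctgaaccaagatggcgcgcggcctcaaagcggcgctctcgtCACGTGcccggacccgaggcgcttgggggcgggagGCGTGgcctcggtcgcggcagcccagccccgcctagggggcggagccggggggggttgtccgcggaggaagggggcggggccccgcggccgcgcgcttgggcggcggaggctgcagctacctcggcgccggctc
PLOD2: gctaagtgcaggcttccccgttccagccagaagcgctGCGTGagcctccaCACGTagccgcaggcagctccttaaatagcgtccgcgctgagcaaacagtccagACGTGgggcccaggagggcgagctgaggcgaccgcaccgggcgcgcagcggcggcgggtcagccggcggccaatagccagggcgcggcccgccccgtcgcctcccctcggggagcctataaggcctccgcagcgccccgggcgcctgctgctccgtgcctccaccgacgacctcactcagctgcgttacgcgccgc
LOX: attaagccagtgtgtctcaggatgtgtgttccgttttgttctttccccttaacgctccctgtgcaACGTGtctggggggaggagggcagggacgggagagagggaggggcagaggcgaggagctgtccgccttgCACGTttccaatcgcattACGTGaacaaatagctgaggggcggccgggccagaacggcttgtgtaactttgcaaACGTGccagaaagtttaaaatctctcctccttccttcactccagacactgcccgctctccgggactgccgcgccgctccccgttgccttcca
P4HA1: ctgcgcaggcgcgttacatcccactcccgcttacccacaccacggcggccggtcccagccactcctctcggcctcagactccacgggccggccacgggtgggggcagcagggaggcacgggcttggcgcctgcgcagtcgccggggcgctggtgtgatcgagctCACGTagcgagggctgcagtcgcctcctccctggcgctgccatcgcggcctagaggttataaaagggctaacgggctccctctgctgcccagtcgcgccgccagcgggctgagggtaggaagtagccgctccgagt
DDIT4: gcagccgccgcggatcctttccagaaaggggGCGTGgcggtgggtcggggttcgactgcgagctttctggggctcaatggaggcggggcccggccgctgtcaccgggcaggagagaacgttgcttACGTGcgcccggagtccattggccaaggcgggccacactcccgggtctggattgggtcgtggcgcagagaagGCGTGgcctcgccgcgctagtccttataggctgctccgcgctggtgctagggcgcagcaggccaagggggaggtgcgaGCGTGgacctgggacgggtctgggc
The windows lie at chr1:203026241-203026540 on the plus strand for PPFIA4, chr3:146161135-146161434 on the minus strand for PLOD2 and chr5:122078210-122078509 on the minus strand for LOX. Those of P4HA1 and DDIT4 lie at chr10:73096817-73097116 on the minus strand and chr10:72273674-72273973 on the plus strand. Each covers the start of the gene's first exon. The LOX window holds 4 matches, of which 1 starts at base -116 on the opposite strand and the others at -185, -98 and -42 on the gene's strand. The P4HA1 window holds 1 match, at -86 on the opposite strand.

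A window was found for 23 of the 33 genes, and 21 of these 23 (91.3%) hold ACGTG or GCGTG on either strand. The same letters are in 48.4% of all 35116 RefSeq promoter windows and in 61.5% of the 12737 windows of tested genes. At least 3 matches were found in 13 of the 23 (56.5%), against 10.1% of all windows and 15% of those of tested genes. CG dinucleotides were also more numerous, with a median of 30 per window against 14 over all windows and 25 over tested genes, and the part of base composition in the motif share was not tested. The windows without a match are those of P4HA2 and TMEM45A. Only the first listed window of each gene was searched, and it is not always at the gene's outer end. That of P4HA2 (chr5:132227042-132227341, minus strand) lies inside the gene, which reaches 132227853. That of KDM3A begins at chr2:86441121, while the gene begins at 86437044. A match is a stretch of letters, not a measured binding site.

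Totals lay between 16533437 and 22187849 estimated counts per library, and 3 counts correspond to between 0.116 and 0.203 CPM (each library's counts over its scaled total). The check of the lines against their tissue found the 10 hepatocyte marker genes at a summed 3490 to 7140 CPM in PLC/PRF/5 and at 5.00 to 12.9 CPM in HLF and SNU475, where 4 to 6 of the 10 were at 0 in each group. The 4 stellate or fibroblast markers summed to 1750 to 2570 CPM in SNU475, 56.9 to 132 CPM in HLF and 1.94 to 4.76 CPM in PLC/PRF/5. The endothelial markers summed to at most 5.87 CPM in any library. The immune list summed to 17.8 to 196 CPM, with 1 or 2 of its 3 genes at 0 in every group. The SNU475 lactate libraries stood furthest apart. In that group 13 of the 33 genes differed more than 2-fold between the replicates, against 0 to 4 in the other groups. Mitochondrially encoded transcripts took 15.1% and 13.9% of counts in the SNU475 control and lactate libraries numbered 2, against 8% and 8.5% in those numbered 1. In HLF controls they took 9.52% in replicate 1 and 3.39% in replicate 2. There replicate 1 was the higher for 27 of the 33 genes, where replicate 2 was the higher for 46% of all genes. The part of the mitochondrial shares in the results was not tested. Some results below are given with and without SNU475 lactate replicate 2.

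Averaged over the 3 lines, 30 of the 33 genes had higher fitted levels with lactate, against 54.2% of all genes tested. Their median log2 fold change was 0.515, against 0.034 over all genes, and 0.522 without STC1, which is close to 0 in 1 line. No single gene of the 33 passed the test. With edgeR's quasi-likelihood test and Benjamini-Hochberg adjustment over all genes, 0 of 33 were called at an adjusted p under 0.05, where 77 genes (0.42%) were called in all. The smallest adjusted p was 0.0562, for BNIP3L. Without adjustment 20 of the 33 had p under 0.05, all with higher levels, against 9.02% of all genes with higher levels. DESeq2 called 9 of the 33, all higher (BNIP3L, DDIT4, ERO1A, FAM162A, LOX, NDRG1, P4HA1, PLOD2 and PPFIA4), where it called 2.91% of all genes higher. Without SNU475 lactate replicate 2 edgeR called 5 of the 33 (BNIP3, BNIP3L, P4HA1, PLOD2 and PPFIA4) and 300 genes in all, and without replicate 1 of that group 11 of the 33 and 1493 genes.

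The replicate number changed these calls. With the number as a block within each line, edgeR called 16 of the 33, all higher, and called 4.12% of all genes higher. They were ANGPTL4, ANKZF1, BNIP3, BNIP3L, CITED2, ERO1A, FAM162A, INSIG2, KDM4B, LOX, LOXL2, NDRG1, P4HA1, P4HA2, PLOD2 and PPFIA4. Same-numbered libraries deviated together in every line, but no label says what a number stands for, so both fits are given. Setting each lactate library against the control of its number, 13 genes were higher in 6 of 6 pairs (7.25% of all genes were) and 0 were lower in all 6 (7.57% of all genes were). These 13 were BNIP3L, FAM162A, P4HA1, P4HA2, PLOD2, LOX, LOXL2, BHLHE40, DDIT4, NDRG1, ERO1A, ANKZF1 and INSIG2. The median log2 ratio of the 33 genes lay between 0.238 (PLC/PRF/5 number 1) and 0.583 (PLC/PRF/5 number 2) over the 6 pairs, while that of all genes lay between 0 and 0.02.

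**Figure D1:**
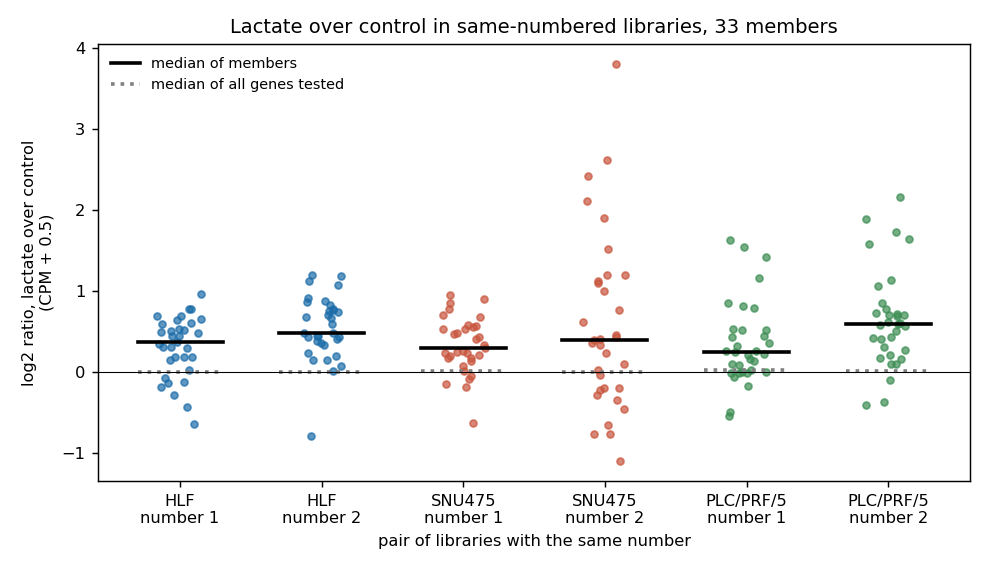
Log2 ratio of lactate to control (vertical axis, from CPM plus 0.5) in the 6 pairs of same-numbered libraries; each point is 1 of the 33 genes, spread sideways only to show overlap, the solid bar is their median and the dotted bar the median of all genes tested. Between 22 (SNU475 number 2) and 32 (HLF number 2) of the 33 points lie above 0 in a pair, and the points spread widest in SNU475 number 2.

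Each line had a positive median. The median log2 fold change was 0.475 in PLC/PRF/5, 0.473 in HLF and 0.446 in SNU475, and 28, 28 and 29 of the 33 genes were above 0. In 24 of the 33 (72.7%) the value was above 0 in all 3 lines, against 20.2% of all genes. No line gave a call: 0 of 33 genes, and 0 of all genes (0%), had an adjusted p under 0.05 by edgeR in HLF, SNU475 or PLC/PRF/5. At an unadjusted p under 0.05 there were 7 genes in each line. All 7 were higher in HLF (3.27% of all genes were) and in PLC/PRF/5 (4.51%), and in SNU475 6 were higher (6.4% of all genes were) and WSB1 was lower (5.19%). DESeq2 called 0 of the 33 in HLF, BHLHE40 and VEGFA as higher in SNU475 (0.855% of all genes were), and LOX as higher in PLC/PRF/5 (0.398%). The size of the change in PLC/PRF/5 rests on lactate replicate 2, without which the median was 0.114 and 25 of 33 genes were above 0. That in HLF depends on the controls, with a median of 0.239 and 23 of 33 genes above 0 without HLF control replicate 2, and 0.746 without HLF control replicate 1.

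Both lactate libraries lay above both controls for 18 of the 33 genes in HLF (54.5%, where 19.6% of all genes did), for 13 in SNU475 (39.4%, against 16.2%) and for 13 in PLC/PRF/5 (39.4%, against 28.5%). The share in PLC/PRF/5 was the nearest to its background. Only BNIP3L, DDIT4, P4HA1 and PLOD2 were separated in this way in all 3 lines, where 2.72% of all genes were. The opposite separation was seen for ADM in PLC/PRF/5 (21.8% of all genes) and for WSB1 in SNU475 (15.4%).

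**Figure D2:**
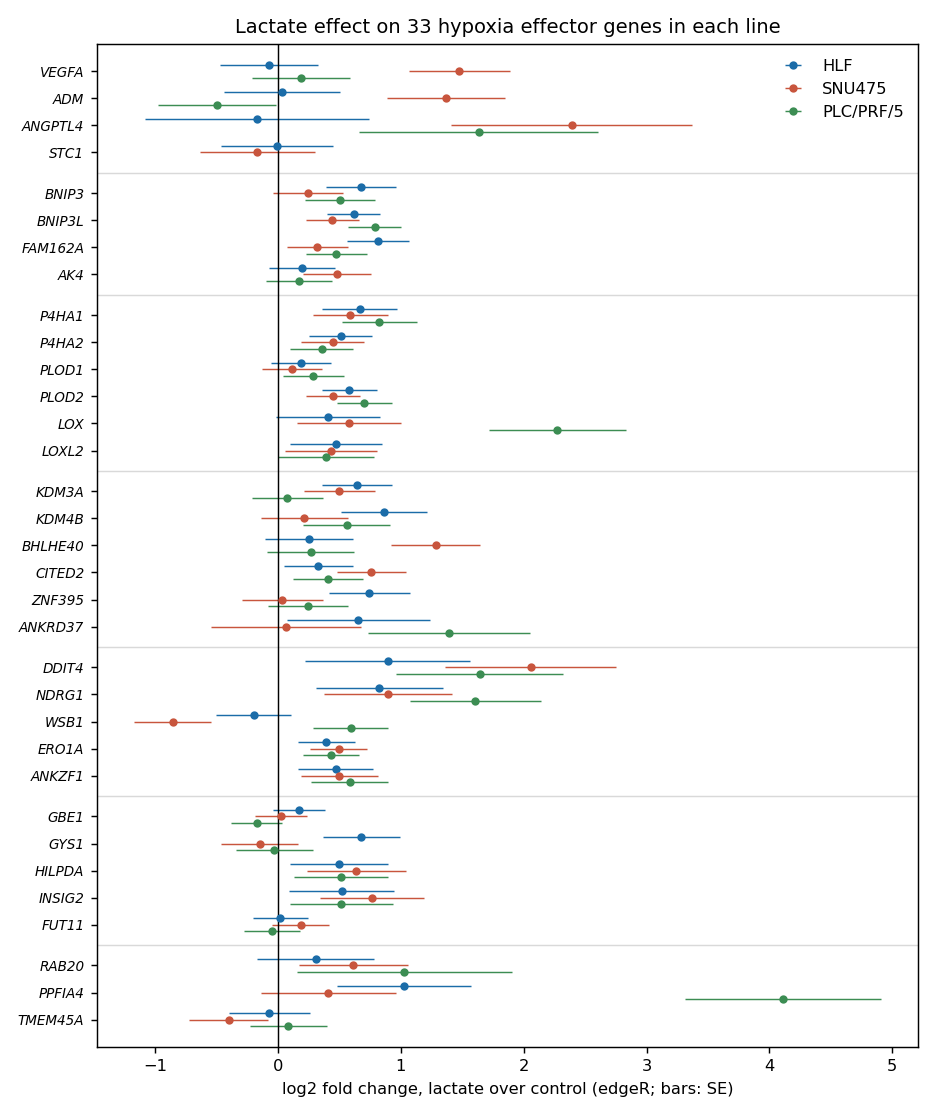
Fitted log2 fold change with lactate (horizontal axis) of the 33 genes (rows, grouped by role) in HLF, SNU475 and PLC/PRF/5; points are estimates and bars standard errors. Most points lie between 0 and 1 in each line, and the widest gaps between lines among the plotted points are at PPFIA4, ANGPTL4, LOX and ADM. STC1 has no PLC/PRF/5 point because both of its lactate libraries there held 0 counts.

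The mitochondrial proteins included the gene with the smallest p. BNIP3 and BNIP3L are outer-membrane receptors that mark mitochondria for autophagy, FAM162A is a mitochondrial protein tied to cell death under hypoxia, and AK4 is a matrix adenylate kinase. All 4 were positive in every line. BNIP3L (chromosome 8, 26383054 to 26413127 in RefSeq GRCh38.p14) was at 100 and 93.1 CPM in the HLF controls and 156 and 141 CPM with lactate. In SNU475 it was at 95.4 and 71.3 CPM in controls and 117 and 109 CPM with lactate. PLC/PRF/5 had 29.1 and 40.1 CPM against 52.8 and 66.6 CPM. The lactate libraries lay above the controls in each line without overlap, and the mean log2 fold change was 0.61 ± 0.12 (SE; edgeR adjusted p = 0.0562, with the replicate block 0.00463). Over 12 fits that each left out 1 library, that mean ranged from 0.54 to 0.70.

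FAM162A showed its greatest separation in HLF, where it was at 27.8 and 19.5 CPM in controls and 40.4 and 42.9 CPM with lactate. SNU475 had 37.8 and 41.6 CPM in controls and 50.3 and 48.8 CPM with lactate. PLC/PRF/5 had 24.2 and 33.9 CPM against 32.9 and 48 CPM, and here the groups overlapped. Its mean log2 fold change was 0.54 ± 0.15 (edgeR adjusted p = 0.113, with the block 0.0177). BNIP3 stood out by level: in HLF it went from 259 and 233 CPM in controls to 391 and 396 CPM with lactate, whereas the SNU475 lactate libraries, at 143 and 74.2 CPM, lay on either side of their controls at 96.1 and 87.2 CPM. BNIP3 has pseudogene copies in the genome, so its estimated counts are less certain. AK4 had the least change of the 4, a mean log2 fold change of 0.28 ± 0.16.

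The collagen and matrix enzymes were positive in all 3 lines for all 6 members. In HLF their median log2 fold change was 0.492, and there the 4 stellate or fibroblast markers were also higher with lactate, with a median of 0.944 and a summed 132 and 95.2 CPM against 71.4 and 56.9 CPM in controls. The part of those markers in the enzymes' values was not tested. P4HA1 and P4HA2 are catalytic subunits of the prolyl hydroxylases that stabilize the collagen helix, PLOD1 and PLOD2 hydroxylate collagen lysines, and LOX and LOXL2 oxidize lysines for cross-links. PLOD2 was at 259 and 227 CPM in HLF controls and 417 and 309 CPM with lactate. In SNU475 the controls had 262 and 311 CPM and the lactate libraries 448 and 333 CPM. The PLC/PRF/5 libraries had 54.8 and 57.5 CPM and 79.3 and 103 CPM. No line showed overlap, and the mean log2 fold change was 0.58 ± 0.13 (edgeR adjusted p = 0.0744, with the block 0.012).

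P4HA1 behaved alike. Its HLF controls were at 136 and 86.3 CPM and the lactate libraries at 206 and 146 CPM. SNU475 had 130 and 97.4 CPM in controls and 211 and 131 CPM with lactate. PLC/PRF/5 had 39.5 and 39.3 CPM in controls and 56.8 and 82.7 CPM with lactate. The groups were apart in each line, though the lower SNU475 lactate library was next to the higher control, and the mean log2 fold change was 0.69 ± 0.18 (edgeR adjusted p = 0.0994, with the block 0.00463).

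LOX differed more between lines than with lactate. It was at 72.5 and 34.9 CPM in HLF controls and 93.3 and 49 CPM with lactate, and the groups overlapped. In SNU475 the controls were at 97.5 and 191 CPM and the lactate libraries at 189 and 241 CPM, which also overlapped. PLC/PRF/5 had far lower levels, with no overlap, at 0.958 and 0.995 CPM in controls and 3.41 and 6.18 CPM with lactate. The mean log2 fold change was 1.08 ± 0.27 (edgeR adjusted p = 0.0973, with the block 0.00254), and the value in PLC/PRF/5 was 2.27 ± 0.56 (adjusted p = 0.376). LOXL2, P4HA2 and PLOD1 had mean log2 fold changes of 0.43 ± 0.22, 0.44 ± 0.15 and 0.20 ± 0.14.

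**Figure D3:**
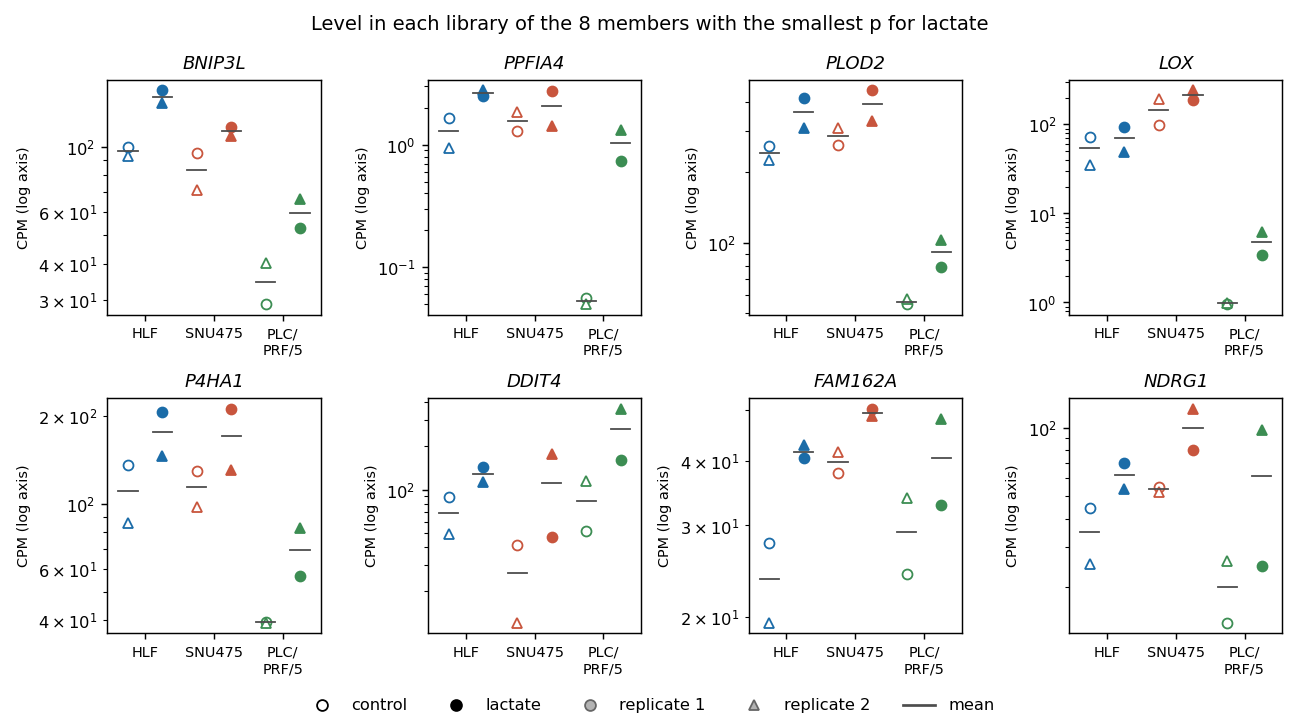
Level in each library (vertical axis, CPM on a log scale) of the 8 genes with the smallest p for the mean lactate effect, by line; open symbols are controls, filled symbols lactate, circles replicate 1, triangles replicate 2, and dashes the group means. BNIP3L, PLOD2, P4HA1 and DDIT4 have both lactate libraries above both controls in each line.

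Among the proteins of growth control and protein handling, DDIT4 and NDRG1 had the widest changes. DDIT4 (REDD1) restrains the growth kinase complex mTORC1. In HLF it was at 89.2 and 49.1 CPM in controls and 144 and 113 CPM with lactate. SNU475 had 41.3 and 12.1 CPM in controls and 47.4 and 175 CPM with lactate, and PLC/PRF/5 had 51.6 and 115 CPM in controls and 160 and 360 CPM with lactate. Each line kept its groups apart, while replicates within a group also differed widely, in SNU475 lactate most of all. The mean log2 fold change was 1.53 ± 0.39 (edgeR adjusted p = 0.101, with the block 0.225). In SNU475 it was 2.06 ± 0.70, and 0.82 ± 0.81 without lactate replicate 2.

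NDRG1, a stress-induced protein linked to differentiation and vesicle traffic, was at 44.6 and 25.4 CPM in HLF controls and 70.1 and 54.1 CPM with lactate. SNU475 had 55.3 and 52.4 CPM in controls and 79.7 and 121 CPM with lactate. PLC/PRF/5 had 14 and 26.1 CPM against 24.8 and 97.5 CPM. Only the PLC/PRF/5 groups overlapped. The mean log2 fold change was 1.11 ± 0.30 (edgeR adjusted p = 0.113, with the block 0.00463), and it was 0.67 ± 0.21 without PLC/PRF/5 lactate replicate 2. With the block, LOX and NDRG1 were the 2 of the 33 genes called in PLC/PRF/5, where 0.561% of all genes were called higher.

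ERO1A, the oxidase that feeds disulphide bonds into the endoplasmic reticulum, had a smaller but even change, with log2 fold changes of 0.49 ± 0.23 in SNU475, 0.43 ± 0.23 in PLC/PRF/5 and 0.39 ± 0.23 in HLF. ANKZF1, which acts in release of stalled nascent chains at the ribosome, had values of 0.50 ± 0.31, 0.58 ± 0.31 and 0.47 ± 0.31 in the same order, and 0.09 ± 0.32 in SNU475 without lactate replicate 2. WSB1, the substrate adaptor of a ubiquitin ligase, had negative values in SNU475 (-0.86 ± 0.31) and HLF (-0.20 ± 0.30) and a positive one in PLC/PRF/5 (0.59 ± 0.31). Its SNU475 controls were at 28.3 and 24.3 CPM and the lactate libraries at 18 and 11 CPM, while in PLC/PRF/5 the controls were at 23.2 and 29.9 CPM and the lactate libraries at 40.5 and 39.6 CPM. In HLF its lactate libraries, at 35.4 and 19.8 CPM, lay on either side of the controls at 28.5 and 34.9 CPM.

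Among the secreted factors, VEGFA, ADM and ANGPTL4 had their highest levels relative to control in 1 SNU475 library. VEGFA drives vessel growth, ADM is a vessel-dilating peptide, ANGPTL4 inhibits lipoprotein lipase, and STC1 is a glycoprotein hormone. VEGFA was at 113 and 77.6 CPM in HLF controls and 99 and 81.4 CPM with lactate. SNU475 had 60.7 and 37.6 CPM in controls and 69.9 and 204 CPM with lactate. The PLC/PRF/5 controls were at 70 and 74.8 CPM and the lactate libraries at 78.3 and 86.5 CPM. HLF groups overlapped and the others did not. The SNU475 log2 fold change was 1.48 ± 0.41 (edgeR adjusted p = 0.276), and 0.50 ± 0.29 without lactate replicate 2.

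ADM in SNU475 was at 92.7 and 118 CPM in controls and 104 and 439 CPM with lactate, and its log2 fold change of 1.37 ± 0.48 was -0.02 ± 0.27 without replicate 2. ADM was lower in both PLC/PRF/5 lactate libraries, 40.8 and 31.5 CPM against 60.2 and 42.1 CPM. ANGPTL4 in SNU475 was at 3.88 and 12 CPM in controls and 7.65 and 75.6 CPM with lactate, and its value of 2.39 ± 0.98 became -0.06 ± 1.11 without replicate 2. ANGPTL4 was also higher with lactate in PLC/PRF/5, at 8.63 and 27.7 CPM against 2.65 and 8.96 CPM in controls, although the groups overlapped (log2 fold change 1.63 ± 0.97, edgeR adjusted p = 0.924, with the block 0.13). Its HLF controls, at 80.5 and 27.3 CPM, lay on either side of the lactate libraries at 51.3 and 44.5 CPM. STC1 was at 86.2 and 63 CPM in HLF controls and 78.9 and 69.5 CPM with lactate, and no lactate fold is given for PLC/PRF/5, where it had 3 counts over both controls and 0 with lactate. edgeR called none of the 4 secreted factors, and none of all genes, in any line. At an unadjusted p under 0.05, 3 of the 4 were higher in SNU475, where 6.4% of all genes were. In HLF and PLC/PRF/5 0 of the 4 had such a p, where 6.28% and 5.92% of all genes did in either direction. DESeq2 called VEGFA in SNU475, where it called 0.855% of all genes higher. Without the count filter edgeR called VEGFA, ADM and ANGPTL4 in SNU475, among 414 genes in all. In PLC/PRF/5 that fit called ANGPTL4, among 188 genes in all.

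**Figure D4:**
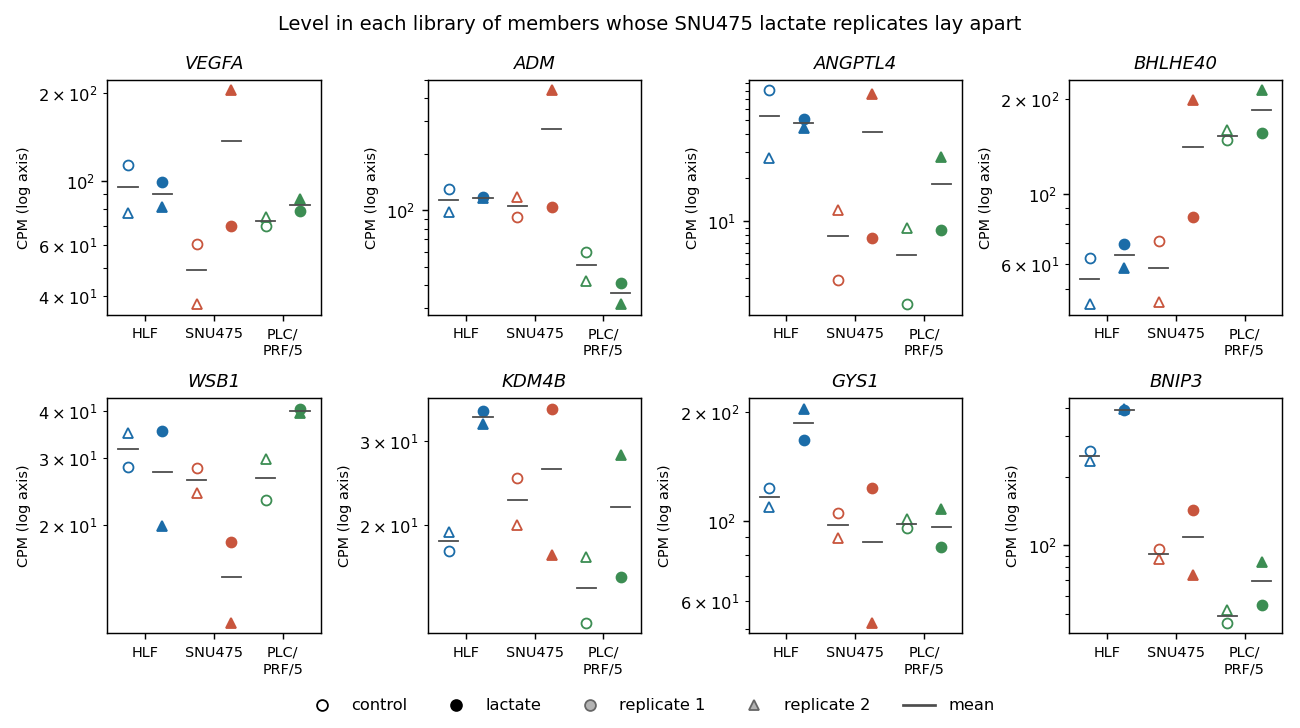
Level in each library (vertical axis, CPM on a log scale) of 8 genes chosen after their values were seen because the SNU475 replicates differed widely or their direction varied; symbols as in the plot of the genes with the smallest p. The SNU475 lactate triangle (replicate 2) is the highest SNU475 point for VEGFA, ADM, ANGPTL4 and BHLHE40 and the lowest for WSB1, KDM4B, GYS1 and BNIP3.

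The genes grouped under chromatin and transcription had positive values in every line for all 6 members in the fit without a block. Mean log2 fold changes ran from 0.34 ± 0.19 (ZNF395) to 0.70 ± 0.36 (ANKRD37). Some values were close to 0, among them KDM3A in PLC/PRF/5 (0.08 ± 0.29). In SNU475 ZNF395 (0.04 ± 0.33) and ANKRD37 (0.06 ± 0.61) were too, and both were below 0 there with the replicate block (-0.06 and -0.04). KDM3A and KDM4B are histone lysine demethylases that use oxygen. KDM4B in HLF was at 17.7 and 19.4 CPM in controls and 34.7 and 32.7 CPM with lactate, whereas in SNU475 the lactate libraries were at 35.1 and 17.3 CPM against 25.2 and 20 CPM. KDM3A was separated in HLF alone, at 42.4 and 37.5 CPM against 72.6 and 52.3 CPM. BHLHE40, a transcriptional repressor of the clock and differentiation, was at 70.8 and 45.4 CPM in SNU475 controls and 84.3 and 198 CPM with lactate. Its log2 fold change there was 1.28 ± 0.36 (edgeR adjusted p = 0.276), and 0.53 ± 0.29 without lactate replicate 2. CITED2, which competes with HIF for a coactivator, was at 117 and 67.3 CPM in SNU475 controls and 157 and 155 CPM with lactate (log2 fold change 0.76 ± 0.28, adjusted p = 0.334).

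The genes of glycogen, lipid and glycan metabolism had the lowest median log2 fold change of the role groups in the mean over lines, 0.166 over 5 members, but not in HLF, where it was 0.498. GYS1, the glycogen synthase of most tissues, was at 123 and 109 CPM in HLF controls and 167 and 204 CPM with lactate. In SNU475 its lactate libraries were at 123 and 52.1 CPM against 105 and 89.5 CPM, and in PLC/PRF/5 at 84.3 and 108 CPM against 95.3 and 101 CPM. GBE1, the glycogen branching enzyme, had a mean log2 fold change of 0.01 ± 0.12, and FUT11, a fucosyltransferase, had 0.05 ± 0.13. HILPDA, which inhibits fat breakdown at lipid droplets, had 0.55 ± 0.23, and INSIG2, which holds the sterol sensor in the endoplasmic reticulum, had 0.60 ± 0.24. Without SNU475 lactate replicate 2 these were 0.27 ± 0.17 for HILPDA and 0.35 ± 0.21 for INSIG2.

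PPFIA4, a liprin-alpha scaffold protein, had the highest mean log2 fold change of the 33 genes, at a level close to the counting limit. It was at 1.64 and 0.948 CPM in HLF controls and 2.49 and 2.78 CPM with lactate. In SNU475 the controls were at 1.29 and 1.84 CPM and the lactate libraries at 2.74 and 1.42 CPM, so the groups overlapped. In PLC/PRF/5 the 2 controls together held 2 counts and the lactate libraries 45, or 0.0564 and 0.0498 CPM against 0.735 and 1.32 CPM. The ratio of these summed counts per scaled library size was 18.7, with a 95% counting interval from 4.88 to 159 that covers counting error only. The mean log2 fold change was 1.85 ± 0.38 (edgeR adjusted p = 0.0575, with the block 0.0189). RAB20, a small GTPase of endosomes, and TMEM45A, a transmembrane protein, had mean log2 fold changes of 0.65 ± 0.37 and -0.13 ± 0.18.

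Whether lactate acted unequally in the 3 lines was tested with the interaction of lactate and line. Again 0 of the 33 genes, and 0 of all genes (0%), were called, and every adjusted p was 1. DESeq2 also called 0 of the 33. Without adjustment 5 of the 33 (15.2%) fell under 0.05, against 3.51% of all genes. They were PPFIA4 (0.00875), WSB1 (0.0205), VEGFA (0.0413), ADM (0.0474) and LOX (0.0487), where the values are edgeR's unadjusted p. PPFIA4 and LOX had their highest log2 fold change in PLC/PRF/5, VEGFA and ADM in SNU475, and WSB1 changed sign between those lines. Of 12 fits that each left out 1 library, only the fit without SNU475 lactate replicate 1 called any gene for the interaction. In that fit replicate 2 was the only lactate library of its line.

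The machinery of HIF itself was followed with a list of 25 genes for its subunits, regulators and further targets, 24 of them tested. In the mean over lines 18 of the 24 were above 0 (54.2% of all genes were) and 0 were called by edgeR (0.42% of all genes). At an unadjusted p under 0.05 there were 9 (15.8% of all genes), of which 8 were higher (9.02%). MXI1, an antagonist of MYC and a HIF target, had the smallest p. It was at 8.94 and 7.64 CPM in HLF controls and 20.6 and 16.1 CPM with lactate, at 5.96 and 5.52 CPM against 7.96 and 10.6 CPM in SNU475, and at 7.39 and 10.3 CPM against 13.2 and 19.1 CPM in PLC/PRF/5. The groups were apart in each line (mean log2 fold change 0.90 ± 0.17, edgeR adjusted p = 0.0505). That mean was 0.83 without SNU475 lactate replicate 2, 0.94 without HLF control replicate 1 and 0.80 without PLC/PRF/5 lactate replicate 2. EGLN2, a prolyl hydroxylase that marks HIF-alpha, was the gene of this list with lower levels in each lactate library: 57.3 and 70.5 CPM against 84.5 and 86.9 CPM in HLF, 54.4 and 68.1 CPM against 76.5 and 87.7 CPM in SNU475, and 51 and 59.9 CPM against 92.6 and 84.1 CPM in PLC/PRF/5. Its mean log2 fold change was -0.51 ± 0.11 (edgeR adjusted p = 0.0703). Without the same libraries, in the order given for MXI1, it was -0.56, -0.51 and -0.55.

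The alpha subunits were not alike across the lines. HIF1A was at 328 and 474 CPM in HLF controls and 700 and 554 CPM with lactate. In SNU475 it was at 500 and 382 CPM in controls and 802 and 1780 CPM with lactate, the higher value again in replicate 2. PLC/PRF/5 had 258 and 217 CPM in controls and 229 and 183 CPM with lactate, where the groups overlapped. The SNU475 log2 fold change of HIF1A was 1.55 ± 0.34, and 0.86 ± 0.27 without replicate 2. Its mean log2 fold change was 0.66 ± 0.19 (adjusted p = 0.131), and 0.44 ± 0.14 without that library, with an unadjusted interaction p of 0.0111 (edgeR quasi-likelihood, adjusted p = 1) with all libraries. EPAS1, which encodes HIF-2 alpha, was at 27.3 and 30 CPM in HLF controls and 59 and 45.2 CPM with lactate, and at 202 and 168 CPM against 197 and 197 CPM in PLC/PRF/5 (mean 0.42 ± 0.12, adjusted p = 0.118).

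Close relatives of the 33 genes were also counted. Of 32 tested paralogues 24 were above 0 (54.2% of all genes were), their median was 0.212 on the log2 scale, and 0 were called by edgeR. The 6 with an unadjusted p under 0.05 (18.8%) were all higher, against 15.8% of all genes in either direction and 9.02% higher. PGF, the placental relative of VEGFA, had the smallest p. It was at 0.497 and 0.738 CPM in HLF controls and 1.63 and 1.58 CPM with lactate, at 2.92 and 5.47 CPM against 7.34 and 18 CPM in SNU475, and at 0.226 and 0.448 CPM against 1.24 and 1.62 CPM in PLC/PRF/5. Each line kept its groups apart (mean log2 fold change 1.67 ± 0.33, edgeR adjusted p = 0.0518). The mean for PGF was 1.41 without SNU475 lactate replicate 2, 1.59 without HLF control replicate 1 and 1.60 without PLC/PRF/5 lactate replicate 2. CITED4, a relative of CITED2, and PPFIA3, a relative of PPFIA4, had 0.79 ± 0.22 and 0.45 ± 0.15.

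More of these genes, and of all genes, were called between untreated lines than with lactate. The comparisons share control libraries. SNU475 against HLF called 14 of the 33 genes, 6 higher and 8 lower, where 39% of all genes were called (21.9% higher and 17.2% lower). PLC/PRF/5 against HLF called 18, 5 higher and 13 lower (43% of all genes, 21.7% higher and 21.3% lower). PLC/PRF/5 against SNU475 called 18, 6 higher and 12 lower (48.7% of all genes, 22.4% higher and 26.3% lower). The counts for SNU475 against HLF and for PLC/PRF/5 against SNU475 are near their backgrounds, and no count was tested against its background. For SNU475 against HLF the median log2 fold change of the 33 genes was -0.12. It was 0.129, -0.263 and -0.002 without HLF control replicate 1, HLF control replicate 2 and SNU475 control replicate 2.

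Most matrix enzymes were lowest in PLC/PRF/5. Values were negative for 6 of 6 members against both other lines, though 2 of them lay close to 0 against HLF. Of all 18355 genes, 9126 were negative against HLF and 9319 against SNU475. Called lower were 4 members against HLF (21.3% of all genes were) and 5 against SNU475 (26.3%). LOX, whose library values are given above, had a log2 fold change of -5.77 ± 0.57 against HLF (adjusted p = 1.05e-05) and of -7.20 ± 0.59 against SNU475 (adjusted p = 2.97e-06). LOXL2 was at 523 and 500 CPM in HLF, 260 and 197 CPM in SNU475 and 16.4 and 7.81 CPM in PLC/PRF/5, with -5.40 ± 0.46 against HLF (adjusted p = 3.29e-06). PLOD2 was called lower in PLC/PRF/5 against both lines (-2.11 ± 0.23 and -2.35 ± 0.23), and so was P4HA1 (-1.50 ± 0.31 and -1.53 ± 0.31). PLOD1 was not called against either line (-0.01 ± 0.25 against HLF), at 165 to 249 CPM in the controls of the 3 lines. P4HA2 was called lower against SNU475 (-0.88 ± 0.26) but not against HLF (-0.06 ± 0.26). The summed stellate or fibroblast markers were also lowest in PLC/PRF/5 and the hepatocyte markers highest there (values above), and their part in these differences was not tested.

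STC1 was nearly absent from PLC/PRF/5, at 0 and 0.149 CPM in the controls. HLF held 2930 counts over both controls against 3 in PLC/PRF/5, a ratio of 945 (95% counting interval 323 to 4580), and SNU475 held 832, a ratio of 298 (102 to 1450). RAB20 was highest in SNU475, at 17.4 and 7.94 CPM, against 2.88 and 1.53 CPM in HLF (log2 fold change 2.52 ± 0.48, edgeR adjusted p = 0.00178) and 0.113 and 0.0995 CPM in PLC/PRF/5, which held 4 counts. ANGPTL4 was lower in SNU475 than in HLF (-2.77 ± 0.99, adjusted p = 0.0447), a call that was lost in 10 of 12 fits that left out a library, with an adjusted p as high as 0.273.

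Some members were highest in PLC/PRF/5. HILPDA was at 76.1 and 105 CPM there, against 14.7 and 9.06 CPM in HLF and 9.22 and 11.4 CPM in SNU475 (log2 fold changes 2.93 ± 0.42 and 3.13 ± 0.42, adjusted p = 0.000179 and 0.000117). TMEM45A was at 24.4 and 22.5 CPM, against 6.16 and 3.32 CPM in HLF and 8.72 and 13.9 CPM in SNU475. BHLHE40 was at 148 and 159 CPM, against 62.7 and 44.7 CPM in HLF and 70.8 and 45.4 CPM in SNU475 (1.51 ± 0.36 and 1.40 ± 0.36, adjusted p = 0.00581 and 0.00789). Each of these calls for BHLHE40 was lost without control replicate 2 of the other line (adjusted p = 0.0579 and 0.0642).

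Other members set SNU475 or HLF apart. AK4 was at 24.5 and 19.8 CPM in SNU475, below 77.4 and 82.3 CPM in HLF (-1.85 ± 0.28, adjusted p = 0.000381) and 85.2 and 104 CPM in PLC/PRF/5. GBE1 was higher in SNU475, at 75.7 and 86.9 CPM, than in HLF, at 33.7 and 34 CPM (1.26 ± 0.21, adjusted p = 0.000794). FUT11 was at 44 and 41.8 CPM in HLF and 11.4 and 7.77 CPM in SNU475 (-2.16 ± 0.24, adjusted p = 3.67e-05). LOX was higher in SNU475 than in HLF (1.43 ± 0.43, adjusted p = 0.0213), a call that was lost without HLF control replicate 2 (adjusted p = 0.165) or SNU475 control replicate 2 (adjusted p = 0.178).

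**Figure D5:**
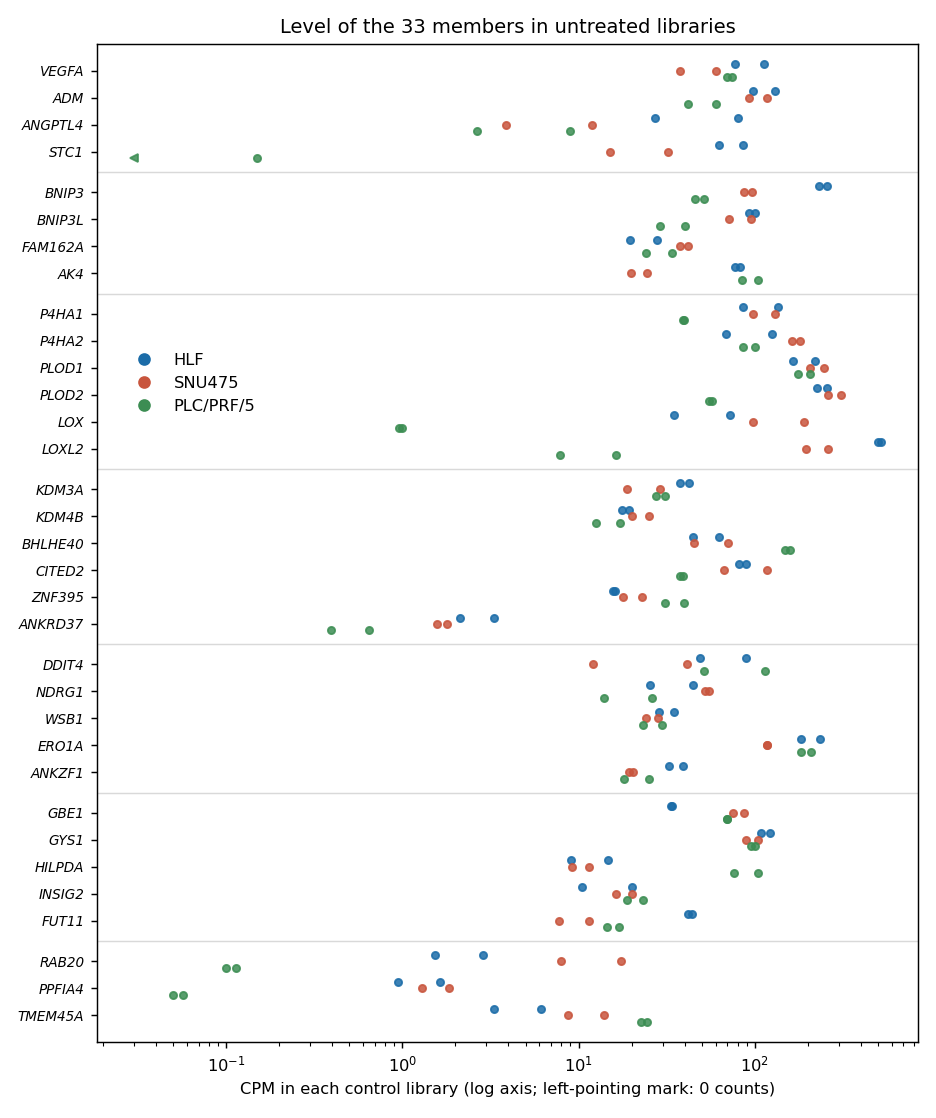
Level of each of the 33 genes (rows, grouped by role) in the 6 control libraries (horizontal axis, CPM on a log scale); colour gives the line, and the left-pointing mark is a library with 0 counts. PLC/PRF/5 points lie far below the others for LOX, LOXL2, STC1, RAB20 and PPFIA4 and above them for HILPDA, TMEM45A and BHLHE40.

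On the TPM scale, which allows levels of different genes to be set side by side, the order of the genes also depended on the line. In HLF controls BNIP3 had the highest mean, at 232 TPM, followed by LOXL2 at 201 TPM, ADM at 112 TPM and PLOD2 at 110 TPM. In SNU475 controls PLOD2 (111 TPM), PLOD1 (88.8 TPM) and ADM (85.7 TPM) led. In PLC/PRF/5 controls HILPDA (123 TPM) and PLOD1 (106 TPM) led, and LOXL2 was at 5.40 TPM. PPFIA4 was at 0.4 TPM in HLF and 0.02 TPM in PLC/PRF/5 and so among the lowest of the 33 genes in each line.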

How the data were processed

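The authors deposited 1 gene table per library of RSEM expected counts (estimated, not always whole) and TPM values, per the file headers. FastQC, STAR, RSEM and DESeq2, with no version, and the mouse builds GRCm38 and mm10 are named in the submitters' processing notes. Each table has 62757 rows with human identifiers and 0 with mouse ones, so the tables were read as human. The human build is not given in the sources used here. Per the labels' protocols, RNA was extracted with TRIzol and the kit marks strand, but whether counting used strand is not stated.

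From these files, the 47 rows of pseudoautosomal Y copies were added to their X copies, expected counts were rounded, and genes with low counts were removed with filterByExpr. Libraries were scaled with TMM factors (0.794 to 1.17). edgeR 4.0.16 in R 4.3.3 (quasi-likelihood, robust) was fitted to 12 libraries as 6 groups with 6 residual degrees of freedom, and p-values were adjusted over 18355 genes by Benjamini-Hochberg and called at 0.05. Errors are standard errors of that fit. Replicate libraries differed by more than sampling noise (chi-square per degree of freedom at least 11.4). Libraries of the same number deviated together from the means of their groups (correlation 0.575 in SNU475, 0.291 in PLC/PRF/5 and 0.139 in HLF), so the numbers, which come from the sample titles, were counted as pairs. Number 2 of PLC/PRF/5 in the titles is number 3 in the deposited names. The fit with line and number as blocks has 3 residual degrees of freedom and served the lactate comparisons. Comparisons of untreated lines used a separate fit with a number term shared by all lines. Alternatives were RLE scaling, no filter, DESeq2 1.42.0, each line or the controls alone, and leaving out libraries. TPM values were not tested. Promoter windows are from RefSeq (GRCh38.p14), found for 23 of the 33 genes.

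The genes and lists were chosen with earlier results of these data known. Named genes were the 8 with the smallest p for the mean effect, 2 per line and for the interaction, up to 3 called in each direction for each pair of untreated lines, and 3 per further list. Other genes were described as members of their role group after their values were seen.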

Additional observations from a re-analysis of the deposited data

How the results depend on the processing

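Over 602 alternative values of the named genes, 0 reversed direction. Those genes were named for a small p or a large called fold, and interaction values, which have no direction, are among the 602. Among values not named, those of ADM and ANGPTL4 in SNU475 fell below 0 without lactate replicate 2. With the replicate block ZNF395 (-0.06) and ANKRD37 (-0.04) in SNU475 and the mean for GBE1 (-0.005) also fell below 0. In HLF the block values of ANGPTL4 (0.02) and STC1 (0.007) rose above it. More signs changed as libraries were left out, with 23 of the 33 genes above 0 in HLF without control replicate 2, against 28. With DESeq2 11 named values gained a call and 1 lost it. Without the count filter 12 gained a call, and with the replicate block 8 did. Counts of lactate calls depended on the fit. For the mean effect (77 genes, 0 of the 33) they were 922 genes and 15 of the 33 without the count filter, 977 and 9 with DESeq2, and 530 and 5 without both SNU475 libraries numbered 2. In HLF (0 genes) they were 111, 41 and 39 genes, and 1 gene when that line's 4 libraries were fitted alone. In SNU475 (0) they were 414 genes and 5 of the 33 without the filter and 274 and 2 with DESeq2. In PLC/PRF/5 (0) they were 188 and 5, 91 and 1, and 138 and 1 in that order, and 569 and 4 with its 4 libraries alone. The interaction (0) gave 136 genes and 4 of the 33 without the filter and 9 genes with DESeq2. For SNU475 against HLF the median log2 fold change of the 33 genes was 0.026 without both SNU475 libraries numbered 2, against -0.12 with all libraries. The cause of these differences was not tested.

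Leaving out each library in turn, the mean effect called 0 to 1493 genes and 0 to 11 of the 33, with the extremes of 1493 and 11 without SNU475 lactate replicate 1, against 300 and 5 without replicate 2 of that group and 149 and 1 without SNU475 control replicate 1. Ranges were 0 to 1788 genes and 0 to 6 of the 33 in SNU475, 0 to 19 genes in PLC/PRF/5, 0 to 203 genes and 0 to 2 of the 33 for the interaction, and 5 to 16 of the 33 for SNU475 against HLF. For SNU475 against HLF the count of all genes called also varied widely between those fits. The median of the 33 genes ranged from 0.114 to 0.725 with lactate in PLC/PRF/5 and from -0.263 to 0.129 for SNU475 against HLF. RLE scaling moved the median of all genes by at most 0.0521.

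With the replicate block, the paired fit called 1268 genes and 16 of the 33 for the mean effect, 3 genes in HLF, 46 in SNU475, 121 and 2 of the 33 in PLC/PRF/5, and 6 genes for the interaction. For untreated lines the number was entered as a term shared by all lines, not within each line, although no label says that lines share it. Calls of the 33 between untreated lines numbered 14, 18 and 18 with and without that term. Of all genes, 39.1%, 43.1% and 48.7% were called with it and 39%, 43% and 48.7% without it. With 2 libraries a group, and counts as low as 2 over a group for PPFIA4, low genes carry wide errors.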

Other observations

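The 2 libraries of a group were not interchangeable for these genes. In PLC/PRF/5 lactate replicate 2 had the higher CPM for 29 of the 33 genes, against 47.8% of all genes. In PLC/PRF/5 controls replicate 2 did for 24 of the 33, against 46.1% of all genes. In HLF controls replicate 1 was the higher for 27 of the 33, where replicate 2 was the higher for 46% of all genes.

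CA9, the membrane carbonic anhydrase that is a classic HIF target, was chosen here after its values were seen. It was at 9.79 and 4.95 CPM in HLF controls and 11.7 and 16.1 CPM with lactate. In SNU475 it was at 4.27 and 0.805 CPM in controls and 10.9 and 1.29 CPM with lactate, and in PLC/PRF/5 at 1.01 and 3.93 CPM against 2.13 and 15.1 CPM. Each lactate library lay above the control of its number (mean log2 fold change 1.32 ± 0.61, edgeR adjusted p = 0.324).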
